A study of Homo sapiens with 42 samples.

Results

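The genes described here are the death receptor FAS and the 4 membrane receptors of the ligand TRAIL, encoded by TNFRSF10A, TNFRSF10B, TNFRSF10C and TNFRSF10D. They are 5 of the 19775 genes measured on 42 Affymetrix expression arrays of A375, an established human melanoma cell line that carries functional p53. Each gene was read from the probe set, among those assigned to that gene alone, with the highest mean log2 signal over the 42 arrays. Cells were transfected with an siRNA for 48 h, and 27000 of them were then exposed to a treatment for 26 h before RNA was taken. The siRNA was GL2, which served as the control, or one against p53, CDT1 or BRCA1. After GL2 or p53 siRNA, cells received DMSO (0.065%, in sets 1 and 2), MLN4924 (650 nM), Nutlin (5 uM) or daunorubicin (100 nM). After CDT1 or BRCA1 siRNA, cells received DMSO or MLN4924. This gave 14 groups of 3 arrays. All came from 1 cell line, and the labels do not say that the 3 arrays of a group were separate cultures, so the p-values below measure only the spread between these arrays.

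FAS and the TRAIL receptors belong to the tumour necrosis factor receptor superfamily and sit in the plasma membrane. When Fas ligand engages FAS, or TRAIL engages TNFRSF10A (DR4) or TNFRSF10B (DR5), the death domain inside the cell recruits the adaptor FADD and caspase-8, which starts apoptosis. TNFRSF10C (DcR1) lacks a death domain and TNFRSF10D (DcR2) has a truncated one, so both bind TRAIL without passing on the death signal and are known as decoy receptors. The FAS, TNFRSF10A and TNFRSF10B genes are known transcriptional targets of p53. Nutlin blocks the binding of p53 to MDM2, the ubiquitin ligase that marks p53 for degradation. Daunorubicin is an anthracycline that damages DNA through topoisomerase II. MLN4924 inhibits the NEDD8-activating enzyme, on which cullin-RING ligases depend, and CDT1, a replication licensing factor, is a protein that those ligases mark for degradation.

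The labels were checked before the receptors were described. Under DMSO, CDT1 siRNA lowered the CDT1 level by a log2 change of -2.17 ± 0.26 (SE, limma adjusted p = 4.97e-07), and BRCA1 siRNA lowered the BRCA1 level by -2.89 ± 0.51 (limma adjusted p = 1.62e-04). The p53 transcript is not analysed here, so its knockdown was followed through the p53 target genes CDKN1A and MDM2. Under DMSO they were lower by -2.09 and -0.65, and under MLN4924 by -4.12 and -1.92. Under Nutlin they were lower by -3.27 and -2.88, and under daunorubicin by -1.91 and -1.85. After p53 siRNA CDKN1A still rose by 1.87 with Nutlin (limma adjusted p = 4.24e-08) and by 2.74 with daunorubicin (1.7e-12). MDM2 changed there by 0.48 (limma adjusted p = 0.301) and 0.55 (0.012). With MLN4924 after p53 siRNA CDKN1A changed by 0.54 (limma adjusted p = 0.00363), under 1.5-fold, and MDM2 rose by 0.67 (1.46e-04). How much p53 was left under the drugs was not tested. In 2 libraries BRCA1 went against the label: it stood at 2.12 on the library labelled BRCA1 siRNA with MLN4924, replicate 3, against -1.13 and -0.78 on the other two, and at -1.35 on the library labelled GL2 siRNA with MLN4924, replicate 3, against 1.90 and 2.18. CDT1 stood at 2.55 on the former, against 1.21 and 1.26, and at 1.22 on the latter, against 2.80 and 2.76. For both genes each of these libraries was nearer to the arrays of the other group than to those of its own label; whether the libraries were exchanged was not tested. The library of p53 siRNA with daunorubicin, replicate 1, had an ACTB 5′ to 3′ probe ratio of 0.0118, where the other 41 had at least 0.649. These 3 are called the doubted libraries, and values of FAS, TNFRSF10A and TNFRSF10B that rest on them are also given without them where they moved by over 0.1. Of 8 measured melanocyte lineage markers, 5 had a median signal above 31.9, the median of all values. SOX10 (1344.9) and MITF (327.4) were among them, while the pigment genes PMEL, MLANA and TYR lay below it. Of 8 leukocyte markers 2 lay above it, MS4A1 (38.2) and ITGAM (41), while PTPRC, the common leukocyte antigen, had a median signal of 5.9.

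A promoter is shown for FAS, which changed with p53 siRNA and is the 1 of the 5 genes matched in the promoter table used here. That table, from RefSeq, gives 3 windows for FAS on GRCh38.p14, each from 250 bases before to 50 after a transcription start. A p53 half-site (the 10-letter decamer bound by a p53 dimer, searched on both strands) was found in 1 of the 3 windows, where 6.63% of 35116 such windows over all genes hold one. It is in capitals in this window, chr10:88991181-88991480, plus strand, where it fills bases 129 to 138.
FAS promoter: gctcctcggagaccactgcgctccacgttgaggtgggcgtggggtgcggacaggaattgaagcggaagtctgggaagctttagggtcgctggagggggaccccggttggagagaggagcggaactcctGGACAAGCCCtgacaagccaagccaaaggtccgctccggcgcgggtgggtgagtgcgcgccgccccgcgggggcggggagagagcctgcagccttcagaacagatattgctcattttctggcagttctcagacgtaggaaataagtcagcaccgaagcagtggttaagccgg
The 10 letters after the half-site complete a 20-letter p53 element with 2 letters off its consensus, and 5.2% of all windows hold a 20-letter element with at most 3 letters off. These are matches of letters and not measurements of binding.

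**Figure D1:**
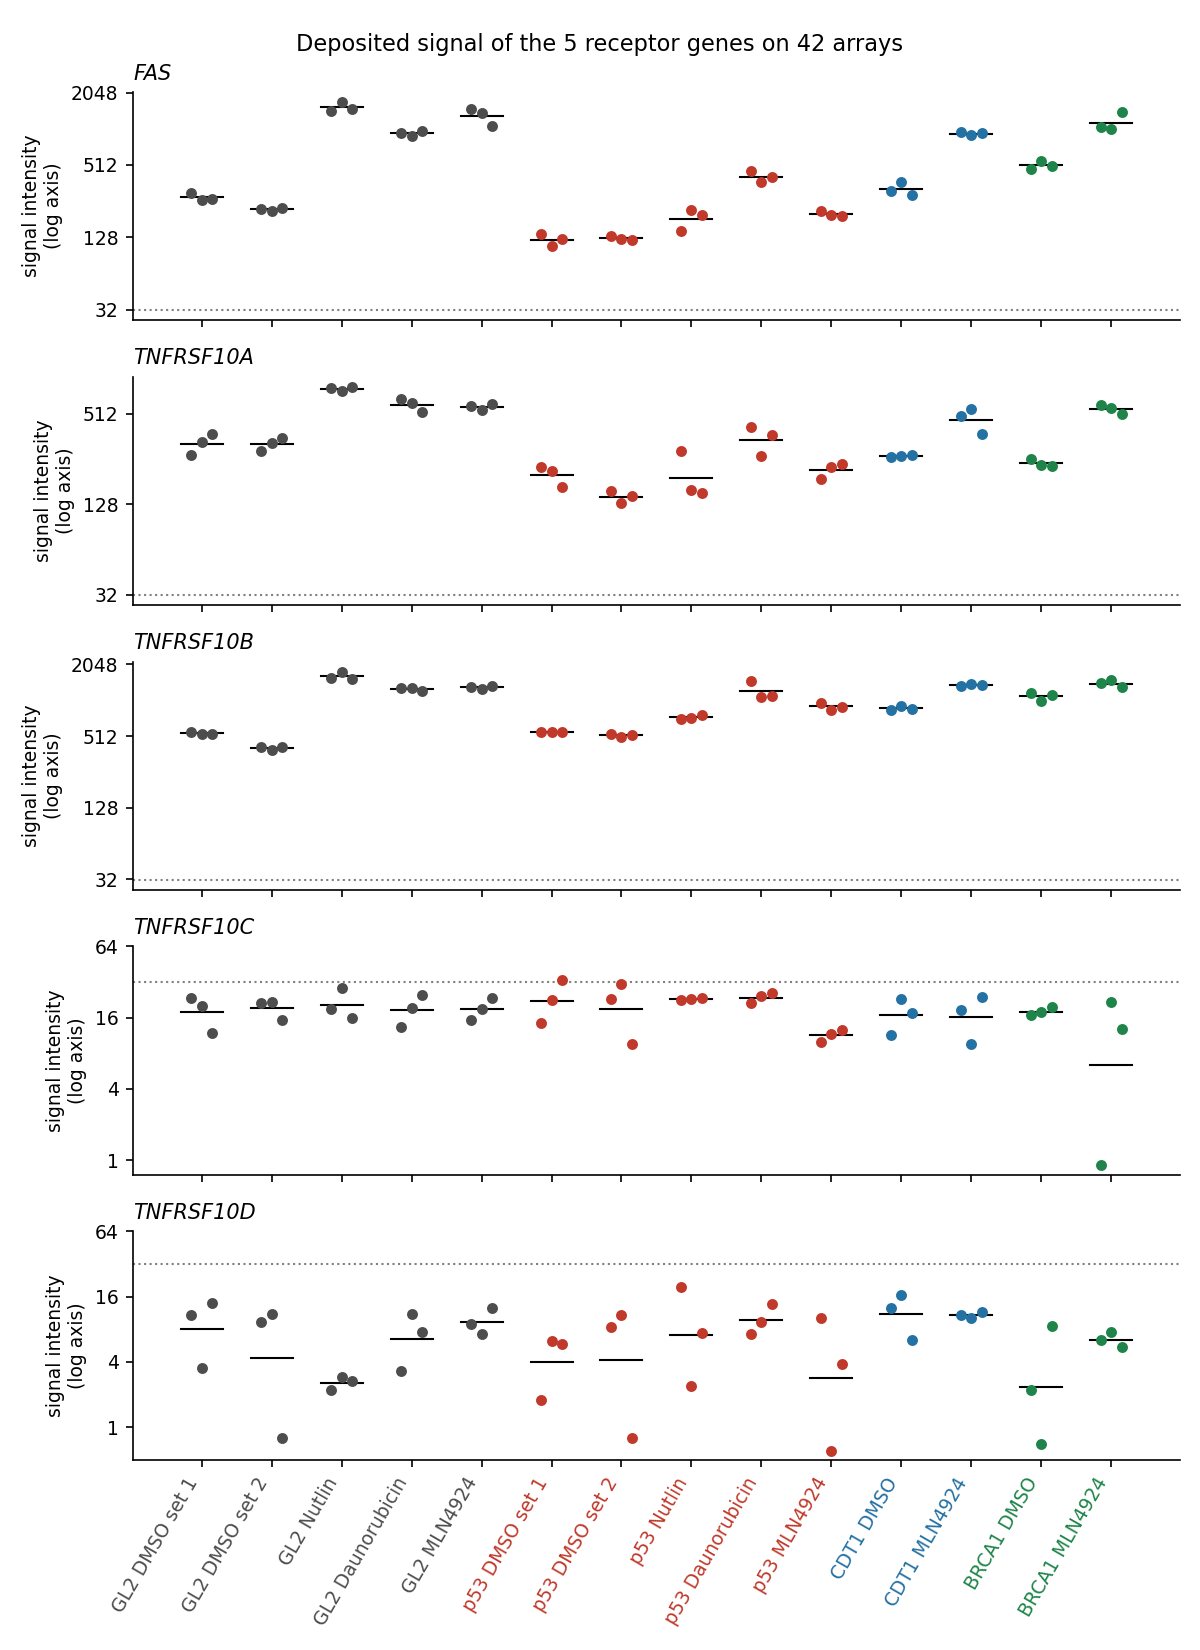
Deposited signal intensity (log axis) of the 5 receptor genes on each of the 42 arrays, by siRNA (colour) and treatment. Points are arrays, black lines are geometric means of 3 arrays, and the dotted line is the median of all values, 31.9. FAS, TNFRSF10A and TNFRSF10B lie above the dotted line on all 42 arrays, while the group means of TNFRSF10C and TNFRSF10D all lie below it.

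FAS, TNFRSF10A and TNFRSF10B gave clear signals on every array, and the decoys did not. FAS ranged from 108 to 1695.3 over the arrays, TNFRSF10A from 131.2 to 771.7, and TNFRSF10B from 391.5 to 1765.7. TNFRSF10C ranged from 0.9 to 33.4 and TNFRSF10D from 0.6 to 19.5. Values of different probe sets cannot be ranked against each other, so levels below are compared only within a gene. In RNA from whole cultures, fewer cells that carry a transcript and less of it per cell cannot be told apart.

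The order of the groups differed between receptors, as the plot of signal on all arrays shows. For comparison between arrays, each log2 signal was taken less the median gene of its array, and this centred level is used from here on. FAS was highest after GL2 siRNA with MLN4924 (4.48 ± 0.30, SD, n = 3), Nutlin (4.38 ± 0.12) and BRCA1 siRNA with MLN4924, whose arrays overlapped. That overlap came from the doubted libraries, at 4.15 after GL2 and 4.57 after BRCA1 siRNA with MLN4924. The other MLN4924 arrays stood at 4.73 and 4.56 after GL2 siRNA, above Nutlin (4.26 to 4.49), and at 4.14 and 4.04 after BRCA1 siRNA, below it. FAS was lowest in the p53 siRNA groups under DMSO, at 0.90 and 0.82. TNFRSF10A was likewise highest after GL2 siRNA with Nutlin (3.35) and MLN4924 (3.29), whose arrays overlapped, and lowest after p53 siRNA with DMSO set 2 (1.09). TNFRSF10B had another order, with BRCA1 siRNA and MLN4924 first (4.56), followed by GL2 siRNA with MLN4924 (4.49), and GL2 siRNA with DMSO set 2 last (2.66). Of the 13 pairs of neighbours in the order, the arrays were fully apart in 5 for FAS, 2 for TNFRSF10A, 5 for TNFRSF10B and 0 for each decoy. These counts include the doubted libraries.

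The first comparison asked how each drug moved the receptors in cells with the control siRNA, and all 3 death-domain receptors rose with all 3 drugs. A gene is called changed here when its change reached at least 1.5-fold with a limma p-value under 0.05 after Benjamini-Hochberg adjustment over the 19775 genes. With MLN4924 3 of the 5 receptor genes were called higher and 0 lower, where 17.2% of all genes were called in either direction. With Nutlin the count was again 3 higher and 0 lower, beside 16.4% of all genes. With daunorubicin it was 3 higher and 0 lower, also beside 16.4%. MLN4924 was compared with both DMSO sets together, and Nutlin and daunorubicin with set 1, so the comparisons share control arrays.

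FAS had the largest rise of the receptors with each drug. Its signal was 299.1, 259.7 and 266.9 in DMSO set 1 and 218.6, 213.8 and 223.6 in set 2. With MLN4924 it was 1491.3, 1372.2 and 1073.2, and every drug-treated array lay above every DMSO array. The centred level rose by 2.59 ± 0.14 (log2, SE), which is 6.02-fold, with a limma adjusted p of 9.66e-15. The third of these arrays is a doubted library and was the lowest of the 3; without the doubted libraries the rise was 2.76. With Nutlin the FAS signal was 1433.3, 1695.3 and 1499.6, a rise of 2.36 ± 0.16 or 5.14-fold. With daunorubicin it was 943.7, 885.7 and 976.0, a rise of 1.59 ± 0.16 or 3.02-fold. The arrays of both drugs were apart from those of DMSO. The gene has 5 probe sets, and the 4 brightest rose with all 3 drugs (2.50 to 2.76 with MLN4924), while the dimmest, with a median signal of 36.5, passed the test with MLN4924 alone (1.84 ± 0.39).

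TNFRSF10A, the TRAIL receptor DR4, rose about as much with Nutlin as with MLN4924. Its signal was 273.6, 330.6 and 375.7 in DMSO set 1, and 289.9, 328.8 and 354.5 in set 2. With MLN4924 it was 573.9, 547.2 and 591.8, a rise of 1.0 ± 0.18 (limma adjusted p = 7.02e-05). With Nutlin it was 765.6, 732.3 and 771.7, a rise of 1.10 ± 0.21. All of these arrays lay above the DMSO arrays. With daunorubicin the signal was 639.5, 607.8 and 525.8 and the rise was smaller, 0.69 ± 0.21 (limma adjusted p = 0.0151). This call was lost when DMSO set 1 replicate 1 (0.56, limma adjusted p = 0.0951), daunorubicin replicate 1 (0.60, 0.0742) or daunorubicin replicate 2 (0.65, 0.0549) was left out.

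TNFRSF10B, the TRAIL receptor DR5, differed between the DMSO sets by less than its drug changes. Its signal was 553.7, 528.6 and 531.9 in set 1 and 416.4, 391.5 and 414.3 in set 2, a difference of -0.32 ± 0.13 that was not called. The arrays of the sets were apart. On the deposited scale and after quantile normalization the difference was -0.40 (limma adjusted p = 0.0091 and 0.00236), under 1.5-fold. With MLN4924 the signal was 1333.7, 1267.7 and 1337.1, and the centred level rose by 1.67 ± 0.11 or 3.18-fold (limma adjusted p = 1.03e-12). With Nutlin it was 1567.7, 1765.7 and 1550.4, a rise of 1.47 ± 0.13, and with daunorubicin 1291.0, 1303.7 and 1234.1, a rise of 1.07 ± 0.13. The arrays of each drug lay above all DMSO arrays.

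Between the sets of DMSO arrays, 0 of the 5 receptors were called after GL2 siRNA (1 had an unadjusted limma p under 0.05), beside 0.941% of all genes. After p53 siRNA 0 were called as well (1 with an unadjusted p under 0.05), beside 0.278%.

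Set against each other, MLN4924 and Nutlin gave receptor levels that did not differ past the test, and FAS was higher with either than with daunorubicin. Between MLN4924 and Nutlin 0 of 5 receptors were called (1, TNFRSF10D, had an unadjusted limma p under 0.05), where 27.5% of all genes were called. The difference was 0.10 for FAS, with a 95% interval from -0.23 to 0.44 (0.27 without the doubted library and -0.24 on the deposited scale, neither called), -0.06 for TNFRSF10A (-0.49 to 0.37) and 0.04 for TNFRSF10B (-0.23 to 0.31). On the deposited scale the TNFRSF10B difference was -0.31 (limma adjusted p = 0.00458) and after quantile normalization -0.38 (6.09e-05), both under 1.5-fold. For TNFRSF10A these values were -0.41 and -0.44, and after quantile normalization FAS had -0.33, none of them called. On the centred scale without the doubted library, the other FAS probe sets were higher with MLN4924 than with Nutlin by 0.42 to 0.57, none called. The largest, 0.57 in 204781_s_at (limma adjusted p = 0.00682), was just under 1.5-fold. How near the MLN4924 and Nutlin levels lay thus depended on the centring and the probe set. FAS was higher with MLN4924 than with daunorubicin by 0.87 ± 0.16 (1.04 without the doubted library), the 1 receptor called, beside 29.1% of all genes. That call rests on the centring: on the deposited scale the difference was 0.48 and after quantile normalization 0.39, both under 1.5-fold. It also rests on the probe sets used. On the centred scale without the doubted library, other sets of TNFRSF10A (0.73 and 0.64) and TNFRSF10B (0.63 and 0.83) were called higher too. The dim TNFRSF10B set 1556645_s_at was not called (0.10). FAS was also higher with Nutlin than with daunorubicin, by 0.77 ± 0.16, again the 1 receptor called, beside 2.3% of all genes. In a fit of these groups alone its limma adjusted p was 0.061, and 96 of all genes were called. MLN4924 also stood apart in the melanocyte markers, whose summed signal (8 of 9 listed genes) was 770 to 948 after GL2 siRNA with the drug against 1970 to 2760 in the DMSO sets, 3490 to 4100 with Nutlin and 2750 to 2990 with daunorubicin. Summed epithelial markers (7 of 7) were 3660 to 3860 with MLN4924 against 2650 to 3420 in the DMSO sets, mostly KRT18. KRT8 (127) and KRT14 (100.1) also had median signals above 31.9, while EPCAM (17.2) and CDH1 (5.7) lay below it. Summed endothelial markers (4 of 4) were 195 to 225 with Nutlin and 202 to 269 with daunorubicin. In the DMSO sets they were 103 to 142. PECAM1 (81.9) and KDR (34.5) had median signals above 31.9, while VWF (5.9) and CDH5 (7.6) lay below it. The ACTB 5′ to 3′ ratio was 0.697 to 0.732 with Nutlin and 0.727 to 0.769 with daunorubicin, against 0.806 to 0.934 in the DMSO sets. The part of these shifts in the receptor changes was not tested.

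The next comparison asked how far these changes held after p53 siRNA. Without any drug, p53 siRNA lowered FAS and TNFRSF10A and left TNFRSF10B without a called change. Under DMSO 0 of 5 receptors were called higher and 2 lower than with GL2 siRNA, beside 3.98% of all genes. The FAS signal was 135.2, 108.0 and 124.6 in DMSO set 1 after p53 siRNA, and 131.6, 123.8 and 122.7 in set 2, below all 6 GL2 arrays. The difference in centred level was -1.03 ± 0.12 on the log2 scale. TNFRSF10A had signals of 226.8, 214.5 and 167.0 in set 1 and 157.5, 131.2 and 144.7 in set 2, and was lower by -0.97 ± 0.15. With set 1 alone as control the TNFRSF10A difference was -0.71 (limma adjusted p = 0.0765). TNFRSF10B differed by 0.15 ± 0.09 and its arrays overlapped those of GL2 siRNA.

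Nutlin raised none of the receptors past the test after p53 siRNA. The count was 0 of 5 by limma (1, FAS, with an unadjusted p under 0.05), beside 0.0556% of all genes. FAS signals were 143.5, 215.8 and 198.0, a change of 0.45 ± 0.16 (limma adjusted p = 0.373), and they overlapped the DMSO arrays on the centred scale. TNFRSF10A signals were 291.7, 158.4 and 152.6, a change of -0.21 ± 0.21. TNFRSF10B signals were 712.3, 725.7 and 765.5, a change of 0.27 ± 0.13 (limma adjusted p = 0.512), with all 3 arrays above those of DMSO set 1. That change was 0.40 on the deposited scale (limma adjusted p = 0.0515) and 0.44 after quantile normalization (0.00263), both under 1.5-fold. The difference between the changes after p53 and GL2 siRNA was tested directly, and 3 of 5 receptors were called lower and 0 higher, beside 10% of all genes. It was -1.91 ± 0.23 for FAS (limma adjusted p = 4.11e-07), -1.30 ± 0.30 for TNFRSF10A (0.00291) and -1.20 ± 0.19 for TNFRSF10B (2.09e-05). With DMSO set 2 in place of set 1 the TNFRSF10A difference was -0.77 and was not called (limma adjusted p = 0.0866).

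MLN4924 still raised the receptors after p53 siRNA, and for FAS the rise was smaller than after GL2 siRNA. Here 3 of 5 were called higher and 0 lower, beside 25.4% of all genes. FAS signals with the drug were 213.6, 195.2 and 191.6, all above the p53 siRNA DMSO arrays, and the centred level rose by 1.11 ± 0.14 or 2.15-fold (limma adjusted p = 2.23e-07). On the deposited scale, without centring, it rose by 0.69, which was still called. TNFRSF10A signals were 189.6, 226.0 and 236.7, a rise of 0.76 ± 0.18. That call was lost on the deposited scale (0.35), after quantile normalization (0.53) and against DMSO set 1 alone (0.54). TNFRSF10B signals were 972.0, 849.0 and 906.6, a rise of 1.17 ± 0.11, or 0.76 on the deposited scale and 0.70 after quantile normalization, both called.
The change after p53 siRNA less that after GL2 siRNA was called for 1 of 5 receptors, which was lower, beside 10.4% of all genes. For FAS this difference was -1.48 ± 0.20 (limma adjusted p = 8.38e-06), and -1.65 without the doubted libraries. For TNFRSF10A it was -0.24, with a 95% interval from -0.77 to 0.29. For TNFRSF10B it was -0.50 ± 0.16 (limma adjusted p = 0.0381), under the 1.5-fold minimum, and was called on the deposited scale (-0.73) and after quantile normalization (-0.74).

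Daunorubicin raised FAS after p53 siRNA too, and a difference from its change after GL2 siRNA was not detectable. After p53 siRNA 3 of 5 receptors were called higher and 0 lower, beside 12% of all genes. FAS signals were 454.7, 370.7 and 406.3, all above those of DMSO set 1, and the centred level rose by 1.67 ± 0.16 or 3.19-fold (limma adjusted p = 2.11e-08). Without the doubted library the rise was 1.46. In a fit of only these groups its limma adjusted p was 0.0706, and 0 receptors were called, beside 51 of all genes. The difference from the change after GL2 siRNA was 0.08 ± 0.23, with a 95% interval from -0.40 to 0.55, and -0.13 without the doubted library. It was 0.02 for TNFRSF10A and -0.01 for TNFRSF10B in the probe sets used, or -0.25 and -0.28 without that library. None of these was called, but another TNFRSF10B probe set gave a called difference without that library, as given below. By limma 0 of 5 receptors were called for this difference, 0 had an unadjusted p under 0.05, and 15.3% of all genes were called. CDKN1A, the cell cycle inhibitor p21, likewise had a difference of -0.04 ± 0.24, while that of MDM2 was -1.38 ± 0.22 (limma adjusted p = 3.01e-05). TNFRSF10A signals were 416.0, 267.0 and 370.0, a rise of 0.71 ± 0.21 (limma adjusted p = 0.0173) with overlapping arrays. Without the doubted library, which was the highest of the 3, that rise was 0.44 and was not called (limma adjusted p = 0.176); without p53 siRNA DMSO set 1 replicate 3 it was 0.56 (0.117).

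**Figure D2:**
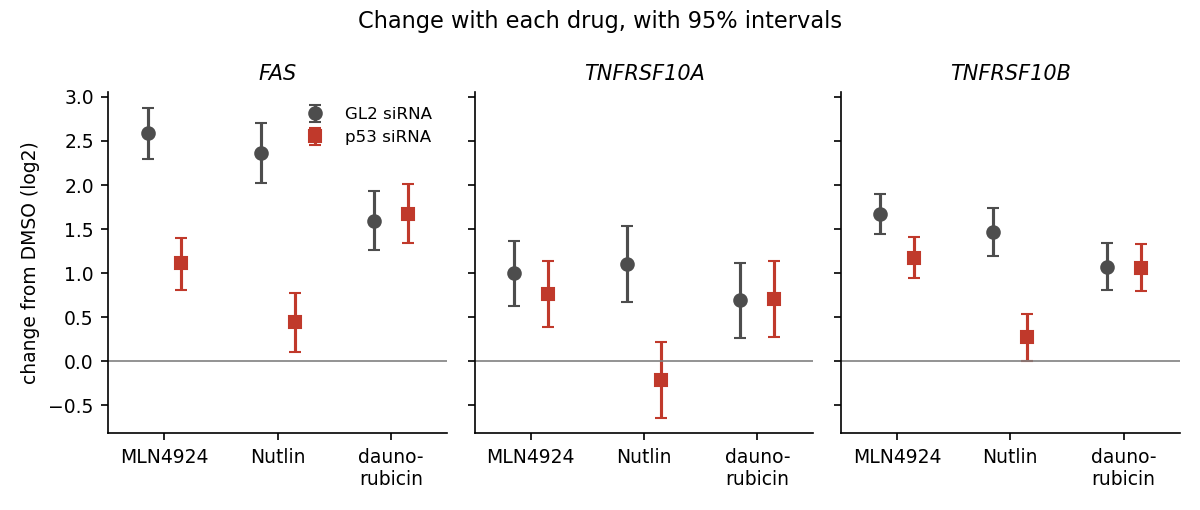
Change of FAS, TNFRSF10A and TNFRSF10B from DMSO with each drug (log2, y axis) after GL2 siRNA (circles) and p53 siRNA (squares), with 95% intervals from the fit, n = 3 arrays a drug group. With Nutlin the p53 siRNA change lies below the GL2 siRNA change for all 3 genes, while with daunorubicin the paired intervals overlap nearly in full.

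Compared drug by drug, FAS was lower after p53 siRNA than after GL2 siRNA under every treatment. Under MLN4924 0 of 5 receptors were called higher and 2 lower (beside 13.9% of all genes), with -2.51 ± 0.16 for FAS (-2.68 without the doubted library) and -1.21 ± 0.21 for TNFRSF10A. Under Nutlin 3 were lower (beside 16%), and FAS was 8.6-fold lower, a change of -3.10 ± 0.16. Under daunorubicin 2 were lower (beside 21.1%), with -1.11 ± 0.16 for FAS and -0.69 ± 0.21 for TNFRSF10A. Without the doubted library these were -1.32 and -0.96 (limma adjusted p = 0.00101), both called. The TNFRSF10A call under daunorubicin was lost without GL2 siRNA daunorubicin replicate 1 (-0.60, limma adjusted p = 0.0614) or p53 siRNA daunorubicin replicate 2 (-0.44, 0.135), which left 1 receptor called. In a fit of only those groups 0 were called under daunorubicin, beside 1016 of all genes, with a limma adjusted p of 0.0564 for FAS.

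For TNFRSF10B the daunorubicin values after p53 siRNA depended on the probe set. The set used for the gene, 209295_at, had signals of 553.0, 558.5 and 552.0 in p53 siRNA DMSO set 1 and of 1475.6, 1093.7 and 1120.9 with daunorubicin, a rise of 1.06 ± 0.13 (0.79 without the doubted library). The set 209294_x_at had signals of 101.7, 70.9 and 76.6 in DMSO and 43.6, 106.6 and 97.0 with the drug, a change of -0.17 ± 0.22 (0.10 without the doubted library). The set 210405_x_at had 87.1, 82.9 and 73.9 in DMSO and 48.0, 80.7 and 75.8 with the drug, a change of -0.36 ± 0.17 (-0.26 without the doubted library). So 1 of these 3 sets rose and the others gave no called change. The suffix _x_at marks sets whose probes can also match other transcripts. Against GL2 siRNA under daunorubicin the same 3 sets gave 0.01 ± 0.13, -1.04 ± 0.22 and -1.15 ± 0.17, the last 2 called lower in a fit of all probe sets. Without the doubted library they gave -0.26, -0.76 and -1.05, with the last 2 again called. The mean over all 4 probe sets of the gene gave -0.82 (limma adjusted p = 3.68e-04). The daunorubicin change after p53 siRNA less that after GL2 siRNA was, without the doubted library, -0.28 in 209295_at and -0.44 in 209294_x_at. Neither was called, while 210405_x_at gave -1.10 ± 0.25 and was called lower (limma adjusted p = 0.00299). After GL2 siRNA the 4 sets changed by 0.55 to 1.66 with daunorubicin, and 209294_x_at alone was not called. The lengths of transcript that these probe sets read were not examined.

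**Figure D3:**
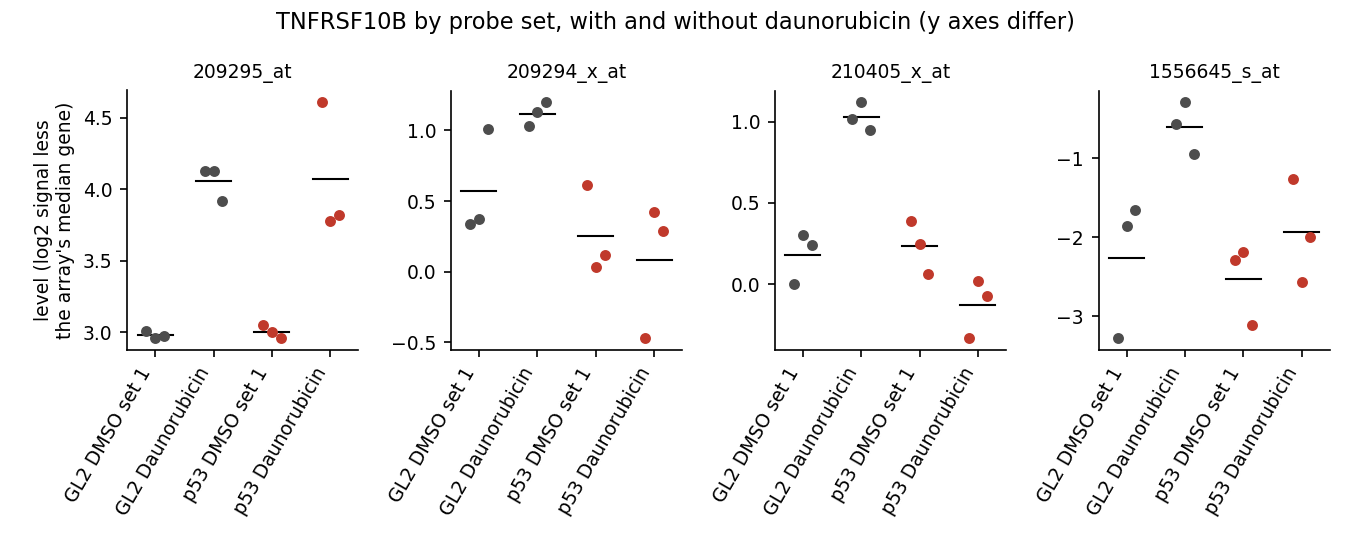
Centred level (log2 signal less the array's median gene; y axes differ) of the 4 TNFRSF10B probe sets on the arrays of GL2 and p53 siRNA with DMSO set 1 and daunorubicin. Points are arrays and lines are means of 3. With daunorubicin after p53 siRNA, 209295_at rises from its DMSO arrays, and 209294_x_at and 210405_x_at do not.

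The last siRNA comparison concerned CDT1 and BRCA1. Both raised TNFRSF10B without any drug, and BRCA1 siRNA also raised FAS. Under DMSO 1 of 5 receptors was higher and 0 lower with CDT1 siRNA (beside 6.3% of all genes), and 2 were higher and 0 lower with BRCA1 siRNA (beside 8.48%). TNFRSF10B signals were 849.9, 916.7 and 864.1 after CDT1 siRNA and 1185.5, 1000.0 and 1143.0 after BRCA1 siRNA, all above the 6 GL2 DMSO arrays. The rises were 0.87 ± 0.11 and 1.20 ± 0.11. FAS signals were 469.3, 554.7 and 505.3 after BRCA1 siRNA, a rise of 1.02 ± 0.14 with no overlap. After CDT1 siRNA they were 312.0, 367.3 and 290.3, a change of 0.35 ± 0.14 (limma adjusted p = 0.113) with overlap. TNFRSF10A had no called change after either, with values of -0.31 ± 0.18 and -0.47 ± 0.18. The TNFRSF10B rise after BRCA1 siRNA was smaller in its other probe sets, at 0.59 in 210405_x_at, 0.48 ± 0.19 in 209294_x_at and -0.11 ± 0.47 in the dim 1556645_s_at, the last 2 not called. Summed fibroblast markers (7 of 7) were 821 to 866 after CDT1 and 905 to 1050 after BRCA1 siRNA under DMSO against 426 to 536 after GL2 siRNA, and 5 of the 7 had a median signal above 31.9, the highest being LUM (193.6) and COL1A1 (134). Their part was not tested.

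MLN4924 raised all 3 death-domain receptors after CDT1 siRNA, and FAS and TNFRSF10A after BRCA1 siRNA. After CDT1 siRNA 3 of 5 receptors rose with MLN4924 and 0 fell (beside 10.6% of all genes). FAS signals were 956.4, 905.3 and 936.2, a rise of 1.65 ± 0.16. TNFRSF10A signals were 493.2, 549.9 and 373.4, a rise of 0.91 ± 0.21, and TNFRSF10B signals were 1340.2, 1390.7 and 1369.3, a rise of 0.75 ± 0.13 (0.36, not called, as a mean of all probe sets). After BRCA1 siRNA 2 rose and 0 fell (beside 16.9%). FAS signals were 1049.9, 1009.7 and 1403.2, a rise of 1.35 ± 0.16, and 1.18 without the doubted library. TNFRSF10A signals were 582.8, 557.7 and 514.1, a rise of 1.38 ± 0.21, while TNFRSF10B had signals of 1419.3, 1513.8 and 1311.7 and a change of 0.53 ± 0.13 (limma adjusted p = 0.00261), under 1.5-fold. The centred level of TNFRSF10B with MLN4924 was 4.44 after CDT1 and 4.56 after BRCA1 siRNA, beside 4.49 after GL2 siRNA.

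The rise with MLN4924 was smaller than after GL2 siRNA for FAS and TNFRSF10B by a direct test. With CDT1 siRNA 2 of 5 receptors had a lower change and 0 a higher one, beside 1.22% of all genes. With BRCA1 siRNA 2 were lower and 0 higher, beside 1.86%. For FAS the differences were -0.94 ± 0.22 with CDT1 (limma adjusted p = 0.0222) and -1.24 ± 0.22 with BRCA1 siRNA (0.00115). For TNFRSF10B they were -0.92 ± 0.17 (limma adjusted p = 0.00476) and -1.14 ± 0.17 (2.16e-04), the latter -0.75 and not called as a mean of all probe sets (0.0916). For TNFRSF10A they were -0.09 and 0.38, with 95% intervals from -0.66 to 0.48 and from -0.19 to 0.95. The FAS difference for CDT1 lost its call without GL2 MLN4924 replicate 1 or 2, CDT1 DMSO replicate 2, or CDT1 MLN4924 replicate 1 or 3 (limma adjusted p from 0.0559 to 0.0795), which left 1 receptor called, and against DMSO set 1 alone (-0.82, 0.0799). Without the doubted libraries the FAS differences were larger, at -1.11 and -1.57. These differences use the same DMSO arrays as the siRNA changes without drug, so the values of both are not independent.

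**Figure D4:**
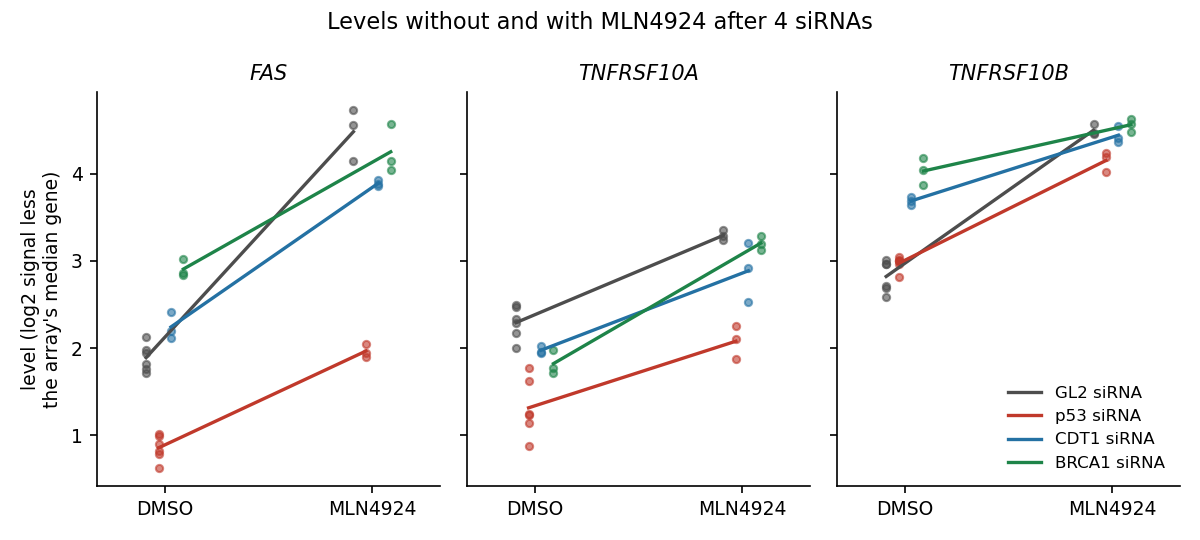
Centred level (log2 signal less the array's median gene) of FAS, TNFRSF10A and TNFRSF10B under DMSO and MLN4924 after each of 4 siRNAs. Points are arrays and lines join group means (6 DMSO arrays for GL2 and p53, 3 otherwise). FAS and TNFRSF10B start higher after BRCA1 siRNA and rise less steeply than after GL2 siRNA.

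The decoy receptors TNFRSF10C and TNFRSF10D gave no called change in any of the 24 comparisons in the setting used. All their group means lay under 31.9, so their changes carry wide errors. TNFRSF10C changed by 0.22 ± 0.53 with MLN4924, 0.08 ± 0.62 with Nutlin and -0.10 ± 0.62 with daunorubicin after GL2 siRNA. Its signals were 0.9, 21.8 and 12.9 after BRCA1 siRNA with MLN4924, where 1 array was far under the rest. The change there was -1.33 ± 0.62, and it was called without the doubted library (-1.86, limma adjusted p = 0.0436) and without replicate 2 (-2.21). TNFRSF10D signals were 2.2, 2.9 and 2.7 with Nutlin after GL2 siRNA, all below the DMSO set 1 values of 10.9, 3.5 and 13.9. That change was -1.77 ± 0.99, with a 95% interval from -3.79 to 0.25, and the gene's other probe set changed by 1.72 ± 0.66, also not called.

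The 3 death-domain receptors varied together over the 14 groups to differing degrees. As a description over group means, which share control arrays between comparisons, Pearson's r was 0.93 between FAS and TNFRSF10A, 0.86 between FAS and TNFRSF10B and 0.72 between TNFRSF10A and TNFRSF10B. Among 14106 genes whose group means spanned at least 1 log2 unit, the 5 most like FAS were GDF15 (r = 0.982), INPP5D (0.97), MIR34A (0.969), TIGAR (0.968) and RNF144B (0.964). GDF15, a stress-induced cytokine, was also most like TNFRSF10A (0.943), followed by INAFM2, HSPB8, CLTRN and SPAG1. The genes most like TNFRSF10B were others, led by IKBKB (0.929), a kinase of the NF-kB pathway, then CCDC110, PROCR, LETMD1 and SRA1.

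Other genes of the death receptor pathway were followed from a list of 41, of which 35 were measured. They moved in both directions. Of the 5 measured genes of the signalling complex, FADD, CFLAR and CASP8 were not called with any of the 3 drugs after GL2 siRNA. TRADD was called higher with all 3 drugs, and CASP10 with Nutlin and daunorubicin, as given below. With MLN4924 after GL2 siRNA 6 of 35 rose and 3 fell, or 5 and 3 without the doubted library, where 10.2% of all genes rose and 7.06% fell. The median change was 0.26, beside 0.08 over all genes. With Nutlin 9 rose and 3 fell, beside 6.71% and 9.67% of all genes, with medians of 0.02 and 0.01. With daunorubicin 5 rose and 3 fell, beside 6.49% and 9.93%, with medians of 0.06 and -0.01. After p53 siRNA 9 rose and 3 fell with MLN4924, beside 17.8% and 7.6% of all genes, with medians of 0.22 and 0.20. With Nutlin none of the 35 passed the limma test after p53 siRNA, beside 0.0405% and 0.0152%, with medians of -0.09 and -0.06. With daunorubicin 4 rose and 2 fell, or 2 and 2 without the doubted library, beside 5.67% and 6.35%, with medians of 0.14 and 0.01. For MLN4924 the split depends on the centring, since on the deposited scale all genes shifted by -0.10 after GL2 siRNA and 3 of the 35 rose and 3 fell. After p53 siRNA that shift was -0.22 and 3 rose and 9 fell. Over all genes the centred fit called 2010 higher and 1397 lower after GL2 siRNA, against 1125 and 2152 on the deposited scale.

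The ligands of FAS and the TRAIL receptors were dim. FASLG had signals between 4.1 and 27.2 over the arrays and TNFSF10 (TRAIL) between 2.8 and 14.3, and neither was called with any drug after GL2 or p53 siRNA. TNFSF15, the ligand of the death receptor TNFRSF25, rose with MLN4924 (0.99, or 0.59 without the doubted library) and daunorubicin (1.27) after GL2 siRNA. Its signals with MLN4924 ran from 31.8 to 84.4. Among other receptors, TNFRSF21 (DR6) had a change of -1.27 and NGFR of -3.13 with MLN4924 after GL2 siRNA, or -1.69 and -3.59 without the doubted library. TNFRSF11B, the soluble decoy osteoprotegerin, had a change of -1.06 (-1.46). TNFRSF1A, the main receptor of tumour necrosis factor, had a change of -1.27 with daunorubicin after p53 siRNA, or -0.97 without the doubted library. All of these passed the test both ways.

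TRADD, an adaptor of the receptor for tumour necrosis factor, rose with each drug after GL2 siRNA, by 0.72 with MLN4924, 0.94 with Nutlin and 0.81 with daunorubicin, but without the doubted library the MLN4924 change was 0.57 and under 1.5-fold. After p53 siRNA it was -0.34 with MLN4924 and -0.28 with daunorubicin, neither called, and the differences of -1.06, -1.21 and -1.09 for the 3 drugs were called. CYLD, a deubiquitinase that acts on such complexes, rose by 1.42, 1.06 and 1.14 after GL2 siRNA, and fell by 0.75 with MLN4924 after p53 siRNA. CASP10, an initiator caspase close to caspase-8, was higher with Nutlin (1.57) and daunorubicin (1.36), and its change with MLN4924 was 0.98 and not called. Downstream, BAX, which opens the outer mitochondrial membrane, rose by 1.30, 1.36 and 1.05 after GL2 siRNA. With daunorubicin after p53 siRNA its signals ran from 43.7 to 435.7 and the change was -1.13, which without the doubted library was -0.30 and not called. The difference between the siRNAs was -2.18 ± 0.51 (limma adjusted p = 0.00255), and -1.35 without that library, still called. BAK1, a relative of BAX with the same role, rose with MLN4924 after GL2 (1.12), p53 (1.02) and BRCA1 siRNA (1.01). It also rose with Nutlin after GL2 siRNA (0.76, limma adjusted p = 0.0137). CASP8AP2, which binds caspase-8, fell with Nutlin (-1.16) and daunorubicin (-1.02) after GL2 siRNA. FAIM fell there too (-0.92 and -0.65). Of the pathway genes, PEA15 had the smallest limma adjusted p with MLN4924 after both GL2 and p53 siRNA. It rose by 0.60 ± 0.08 after GL2 siRNA (limma adjusted p = 1.3e-06), near the 1.5-fold minimum. After p53 siRNA it rose by 1.26 ± 0.08 (4.6e-13), followed by DIABLO (0.73 ± 0.08, 8.64e-09).

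**Figure D5:**
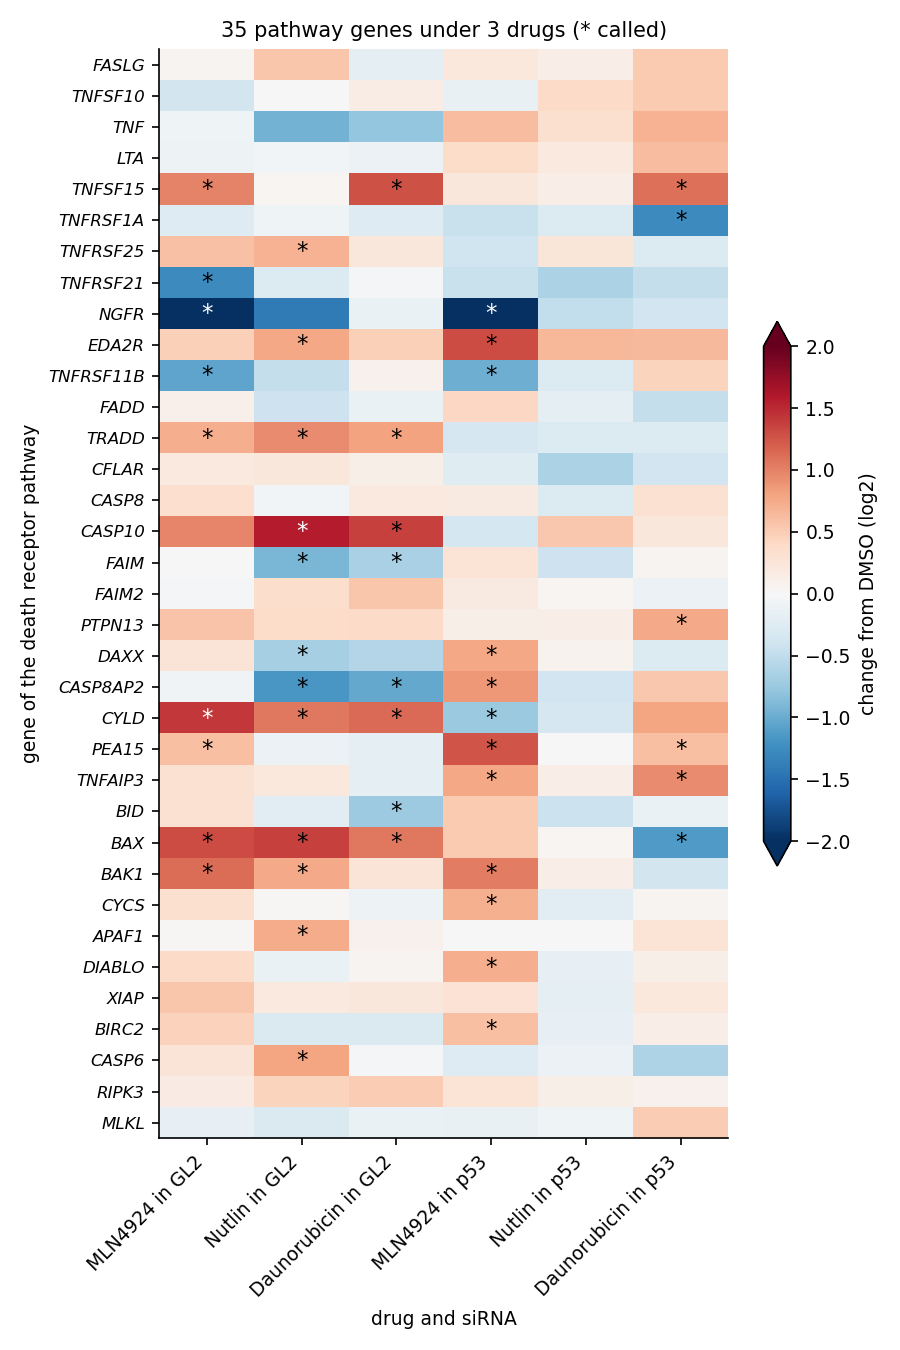
Change from DMSO (log2, colour, with the scale ending at 2 on either side) of the 35 measured pathway genes (rows) with 3 drugs after GL2 and p53 siRNA (columns); a star marks a called change. CYLD and BAX are starred as higher with all 3 drugs after GL2 siRNA, and no gene is starred with Nutlin after p53 siRNA.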

How the data were processed

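The deposited table holds one signal intensity per probe set and array, which the authors made in Affymetrix Expression Console (from the submitters' processing notes); the summary algorithm is not given in the sources used here. The values are linear, with 147 at 0, and each array's mean without the 2% at each end was 150.0. Of 54675 probe sets, 41091 had 1 gene symbol, 1801 several and 11721 none. Zeros were set to 0.1, log2 was taken, and the median gene of each array was subtracted. One limma 3.58.1 model (R 4.3.3) of the 14 groups, with 28 residual degrees of freedom, gave all comparisons, and it was tested on simulated data. The choice of DMSO set followed earlier processing of these data. The members and lists were chosen with earlier results of these data known. All 5 receptors are named. Pathway genes were chosen for naming after their values were seen, and some with the smallest p in a comparison are not named. Promoter windows came from a table of RefSeq starts, in which 1 of the 5 genes was matched. Figures used Matplotlib. The number of arrays limits the precision.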

Additional observations from a re-analysis of the deposited data

Results flagged for a closer look

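Of the receptor changes, 8 differed between siRNAs in the direct limma test of the difference, and these are the results to look at again. For FAS the MLN4924 change was lower after p53 siRNA by -1.48, after CDT1 siRNA by -0.94 and after BRCA1 siRNA by -1.24, and the Nutlin change was lower after p53 siRNA by -1.91. For TNFRSF10A the Nutlin change was lower after p53 siRNA by -1.30. For TNFRSF10B the Nutlin change was lower after p53 siRNA by -1.20, and the MLN4924 change was lower after CDT1 siRNA by -0.92 and after BRCA1 siRNA by -1.14. The values for GL2 siRNA enter each of them, so they are not independent of one another. Groups of 3 arrays were not searched for outlying arrays.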

How the results depend on the processing

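Of 14 alternatives, not all of which apply to each comparison, none of those run ended or turned the called rises of FAS and TNFRSF10B with MLN4924 and Nutlin after GL2 siRNA. On the deposited scale and after quantile normalization, 2 receptors (not 1) had a lower MLN4924 change after p53 siRNA. Beside them 2074 and 1600 of all genes were called (not 2051). Between MLN4924 and daunorubicin 0 (not 1) differed, beside 5920 and 4833 of all genes (not 5753). With the mean of all probe sets, 4 were called with MLN4924 after BRCA1 siRNA, beside 2733 of all genes (not 3349). For the MLN4924 difference of p53 siRNA 2 were called, beside 1518 (not 2051), and for that of BRCA1 siRNA 1, beside 267 (not 368). For p53 against GL2 siRNA under MLN4924 4 were called, beside 2171 (not 2742), and under daunorubicin the TNFRSF10B difference turned to -0.82. A pseudocount of 16 called 1 (TNFRSF10D) between MLN4924 and Nutlin, beside 4641 of all genes (not 5442). With no minimum fold, 2 were called for the MLN4924 difference of p53 siRNA, beside 2516 of all genes (not 2051). Between MLN4924 and daunorubicin 2 were called, beside 7347 of all genes (not 5753). A fit of only the groups compared called 0 receptors with daunorubicin after p53 siRNA, beside 51 of all genes (not 2377). For p53 against GL2 siRNA under daunorubicin it called 0, beside 1016 of all genes (not 4182). Between Nutlin and daunorubicin it called 0, beside 96 (not 455), and between MLN4924 and Nutlin 1, beside 5096 (not 5442). DMSO set 1 alone left 1 for the MLN4924 difference of CDT1 siRNA, beside 247 of all genes (not 241). It left 1 for p53 siRNA under DMSO, beside 346 (not 787). Set 2 alone gave 2 for the MLN4924 difference of p53 siRNA, beside 2034 (not 2051). Leaving out 1 array gave 1 to 2 for p53 against GL2 siRNA under daunorubicin, with 3998 or 4593 of all genes called where it gave 1. For the CDT1 difference it gave 1 to 2, with 121 to 204 of all genes called where it gave 1. With the replicate number as a block, no count of the 24 moved, and FAS rose by 2.59 with MLN4924 after GL2 siRNA. Same-numbered arrays had correlations of -0.21 to 0.12, and arrays with other numbers -0.21 to 0.15. With 3 arrays a group, these values cannot tell whether same-numbered arrays shared a culture or a day. Of 2247 values recomputed for single receptors, 122 had the other sign from an uncalled change. The dim decoys limit what could be seen: their errors were at least 0.53 in the drug comparisons.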
